A study of Mus musculus with 11 samples.

Results

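The genes described here encode the core scaffold of the postsynaptic density, measured in corticotropin-releasing factor receptor 1-expressing (CRF1+) neurons of the mouse medial prefrontal cortex (mPFC). The 9 genes were chosen by name: Dlg1, Dlg2, Dlg3 and Dlg4, Shank1, Shank2 and Shank3, Homer1 and Camk2a. They are 9 of the 53465 genes in the count files, and all 9 were among the 17093 genes that passed the filter on low counts. Cells carrying GFP were sorted by fluorescence from the mPFC of single adult male CRF1:GFP mice, a reporter line in which GFP marks CRF1-expressing cells, and each RNA-seq library came from 1 mouse. The 6 naïve mice breathed air and received injections of pyrazole, an alcohol dehydrogenase inhibitor (68.1 mg/kg). The 5 withdrawn mice were exposed intermittently to ethanol vapor for 5 to 6 weeks, were injected with ethanol (1.75 g/kg) and the same pyrazole, and were 5 to 8 days into abstinence. All mice were at least 10 weeks old. Groups follow the treatment label of each sample. Withdrawn mice 3, 4 and 5 also carry a label that says control, so values without these 3 mice are also given. The group sizes in the design text are 5 control and 6 ethanol, and leaving out these 3 mice does not resolve that difference. The comparison asks whether expression of the excitatory postsynaptic scaffold in these neurons differs in withdrawal.

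The postsynaptic density is the protein mesh under the membrane of excitatory synapses on dendritic spines. The Dlg proteins, members of the membrane-associated guanylate kinase (MAGUK) family, sit near the membrane and hold glutamate receptors in place through their PDZ domains. SAPAP adaptors, encoded by the Dlgap genes, tie them to the deeper Shank proteins. These bind Homer and, through it, metabotropic glutamate receptors, and they also connect to the actin cytoskeleton. Camk2a encodes the alpha subunit of calcium/calmodulin-dependent kinase II (CaMKII), an abundant enzyme of the density that is required for long-term potentiation.

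The libraries held between 7351567 and 22244869 counts on genes. On these totals, before TMM normalization, 3 counts were worth 0.135 to 0.408 CPM (the count scaled to a common library size), a floor set by counting error alone. Levels are given in CPM on TMM-normalized library sizes. Crhr1, which encodes CRF1, averaged 92.7 ± 21.5 CPM in the naïve group (SD, n = 6) and 89.3 ± 33.6 CPM in the withdrawn group (SD, n = 5). The 5 glutamatergic neuron markers summed to between 1047 and 2449 CPM in every mouse, and the 6 GABAergic markers to between 28.5 and 923 CPM. Of the GABAergic markers 5 had higher estimates in withdrawn mice. The exception was Sst, which averaged 247 CPM in naïve mice (0.068 to 699) and 6.53 CPM in withdrawn mice (0 to 32.6). The sum of the 5 fibroblast markers was higher in most withdrawn mice, at 0.068 to 58.9 CPM (median 15.1) in naïve mice and 10.9 to 1283 CPM (median 620) in withdrawn mice. The 4 markers of the list that were tested all had higher estimates, while Lum, which was not tested, averaged 1.36 CPM in naïve and 0.91 CPM in withdrawn mice. The sum of the 5 astrocyte markers had medians of 35.3 and 232 CPM, but 1 gene carried the difference: Gja1 averaged 15.3 and 187 CPM, while the means of Aqp4, Gfap, Aldh1l1 and Slc1a3 were lower in withdrawn mice. The 5 microglial markers summed to at most 6.47 CPM in naïve mice and to 6.87 to 17.5 CPM in withdrawn mice, mainly through Tmem119 (means of 0.543 and 7.39 CPM), while the means of Csf1r and P2ry12 were lower in withdrawn mice. Median sums in the naïve and withdrawn groups were 171 and 106 CPM for oligodendrocyte, 7.33 and 12.2 CPM for oligodendrocyte precursor and 111 and 36.5 CPM for endothelial markers, and no marker was at 0 in all mice. Their part in the values below was not tested, and in sorted bulk samples fewer cells of a type and less RNA per cell cannot be told apart. Naïve mouse 5 stood apart from the rest. It had the fewest genes detected (15585, against up to 31830) and the smallest share of tallied reads outside exons (5.77%, against up to 48.1%), and results are therefore given with and without it. Withdrawn mouse 4 lay at the other end of both measures and had the fewest counts on genes (7351567). Estimates of the scaffold genes without that mouse are also given.

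Camk2a was the most highly expressed scaffold gene and Dlg4, which encodes PSD-95, was the lowest. On the scale of CPM per kilobase of merged exon, averaged over all 11 mice, Camk2a had a level of 61.7 ± 17.3 (SD), which only 6.05% of 13918 tested protein-coding genes exceeded. Dlg3 followed at 25.2, Shank1 at 20.4, Dlg1 at 16.7, Homer1 at 14.9, Shank2 at 8.56 and Dlg2 at 6.85. Shank3 (1.62) and Dlg4 (0.926) were far below, with 76.1% and 84.1% of the coding genes above them. Camk2a exceeded Dlg3, Homer1 exceeded Shank2, and Dlg2 exceeded Shank3 in 11 of 11 mice, also when each level was divided by the length of the longest coding transcript instead. The other neighbours in this order were not separated in that way. Dlg3 was above Shank1 in 8 of 11 mice with either length. Shank1 was above Dlg1 in 10 mice over merged exons and in 1 with the longest transcript, Dlg1 above Homer1 in 8 and 2, and Shank2 above Dlg2 in 7 and 3. Shank3 was above Dlg4 in 11 mice over merged exons and in 6 with the longest transcript. Both of these low genes were nonetheless counted in every mouse, with 38 to 288 counts for Dlg4 and 85 to 359 for Shank3.

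No scaffold gene passed the test between withdrawn and naïve mice. In edgeR's quasi-likelihood test, where a call needed an adjusted p no larger than 0.05 and a log2 fold change over 0.6 in size, 0 of the 9 genes were called, beside 0.00585% of all tested genes (1 gene). None of the 9 had an unadjusted p under 0.05, where 7.22% of all tested genes did, and DESeq2's Wald test also called 0 of the 9, beside 1.66% of genes, with 0 at an unadjusted p under 0.05, beside 10.6%. For 7 of the 9 the estimate was lower in withdrawn mice, as it was for 48.2% of all tested genes and for 56.3% of those with a mean of at least 10 CPM. Their median log2 fold change was -0.21, beside 0.021 for all tested genes and -0.053 for those at 10 CPM or more. The groups overlapped for all 9 genes, while 0.948% of tested genes had groups that did not overlap.

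**Figure D1:**
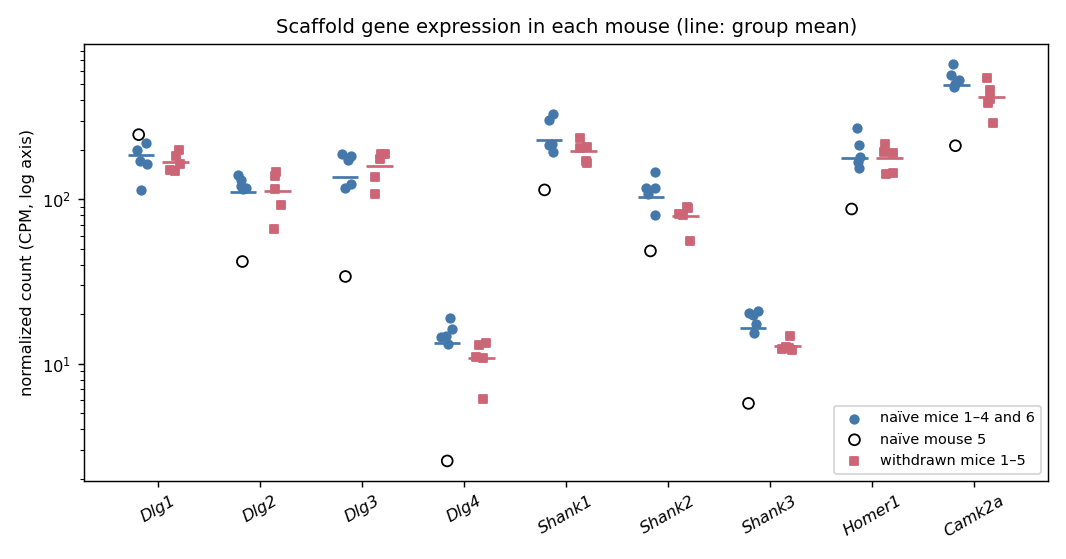
Normalized count (CPM, log axis) of the 9 scaffold genes in each mouse, with naïve mice as circles, withdrawn mice as squares, naïve mouse 5 as an open circle and the group mean as a line. The open circle is the lowest point of all 11 mice for every gene except Dlg1, for which it is the highest (247.5 CPM).

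Among the MAGUK genes, Dlg1 and Dlg3 had the highest levels per kilobase in these libraries and Dlg4 had the lowest. Dlg1 (SAP97; ENSMUSG00000022770, chromosome 16 of GRCm38, 31663443 to 31875129) encodes a scaffold known for the trafficking of AMPA receptors. It had 114 to 248 CPM in naïve mice (median 186) and 165, 148, 184, 151 and 200 CPM in withdrawn mice 1 to 5. The withdrawn values lay inside the naïve range, and the log2 fold change was -0.14 (SE 0.19, edgeR adjusted p = 0.934). Dlg2 (PSD-93; ENSMUSG00000052572, chromosome 7, 90476672 to 92449247) had 41.9 to 140 CPM in naïve mice (median 119) and 65.7 to 147 CPM in withdrawn mice (median 115), with a log2 fold change of 0.012 (SE 0.28, edgeR adjusted p = 0.996). Its exons share 225 bases with other annotated genes on the same strand. Dlg3 (SAP102; ENSMUSG00000000881, chromosome X, 100767722 to 100818410), the MAGUK known for its early expression in development, had 34.0 to 188 CPM in naïve mice (median 149) and 108 to 190 CPM in withdrawn mice (median 177). Its estimate was the highest of the 9, a log2 fold change of 0.23 (SE 0.34, edgeR adjusted p = 0.940), and without naïve mouse 5 it was 0.035.

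Dlg4 (ENSMUSG00000020886, chromosome 11, 70016942 to 70047522) encodes PSD-95, the MAGUK most often used as a marker of excitatory synapses. It had 2.57 to 18.9 CPM in naïve mice (median 14.7) and 10.9, 10.9, 13.5, 6.15 and 13.1 CPM in withdrawn mice 1 to 5. The lowest value belonged to naïve mouse 5, the next to withdrawn mouse 4, and the 5 other naïve mice (13.2 to 18.9 CPM) overlapped the withdrawn mice only at withdrawn mouse 3. The log2 fold change was -0.30 with a 95% interval from -1.29 to 0.70 (edgeR adjusted p = 0.946), the widest of the 9, which corresponds to a fold between 0.408 and 1.62. The exons of Dlg4 overlap no other gene in the annotation used here for lengths. Reads lost to overlaps in the annotation used for counting were not examined.

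The Shank genes encode the large multidomain scaffolds of the deep layer of the density, and Shank2 and Shank3 had the lowest estimates of the 9. Shank1 (ENSMUSG00000038738, chromosome 7, 44310253 to 44360572) was the main paralog, with 114 to 329 CPM in naïve mice (median 216) and 167 to 235 CPM in withdrawn mice (median 206), a log2 fold change of -0.21 (SE 0.23, edgeR adjusted p = 0.911). Shank2 (ENSMUSG00000037541, chromosome 7, 144001928 to 144424494) had 48.6 to 146 CPM in naïve mice (median 113) and 81.3, 89.3, 88.8, 55.6 and 80.6 CPM in withdrawn mice 1 to 5. The withdrawn mice lay in the lower part of the naïve range, with withdrawn mouse 4 well under the other withdrawn mice. The log2 fold change of Shank2 was -0.38 (SE 0.25), with the smallest p of the 9 genes (unadjusted p = 0.147, edgeR adjusted p = 0.820).

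Shank3 (ENSMUSG00000022623, chromosome 15, 89499623 to 89560261), a gene whose loss causes Phelan-McDermid syndrome in people, had 5.76 to 20.9 CPM in naïve mice (median 18.7). Withdrawn mice 1 to 5 had 12.1, 12.6, 12.5, 12.3 and 14.7 CPM, a range narrower than that of any other gene of the set in that group (SD 0.11 on the log2 scale). These values rest on only 100 to 268 counts per mouse, and a spread this small was not compared with counting error. Every withdrawn mouse was below naïve mice 1 to 4 and 6 (15.5 to 20.9 CPM) and above naïve mouse 5. With all mice the log2 fold change was -0.37 (SE 0.36, edgeR adjusted p = 0.896). Antisense genes overlap 271 of 9189 bases in the exons of Shank3 and 339 of 10514 in those of Shank1, and the strand setting of the counting was not stated, so a small part of these counts could belong to the other gene.

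Homer1 (ENSMUSG00000007617, chromosome 13, 93299635 to 93405129) encodes the adaptor that links Shank to group I metabotropic glutamate receptors. Its count sums the long scaffolding isoforms and the short activity-induced isoform Homer1a, which cannot be separated here. It had 87.4 to 273 CPM in naïve mice (median 175) and 142 to 216 CPM in withdrawn mice (median 191), with a log2 fold change of -0.018 (SE 0.24) whose 95% interval ran from -0.53 to 0.50 (edgeR adjusted p = 0.994). Camk2a (ENSMUSG00000024617) had 212 to 667 CPM in naïve mice (median 518) and 387, 408, 547, 293 and 462 CPM in withdrawn mice 1 to 5. Apart from naïve mouse 5, the naïve mice had at least 483 CPM, and only withdrawn mouse 3 reached their range. The log2 fold change of Camk2a was -0.24 (SE 0.25, edgeR adjusted p = 0.904).

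Naïve mouse 5 was the lowest of 11 mice for 8 of the 9 genes and the highest for Dlg1, whereas it was the lowest for 24.2% and the highest for 21.2% of the 10208 tested genes with at least 10 CPM. Compared with the mean log2 CPM of the other naïve mice, it was 5.75-fold lower for Dlg4, 4.52-fold for Dlg3, 3.19-fold for Shank3, 2.96-fold for Dlg2 and 2.58-fold for Camk2a. Shank2, Homer1 and Shank1 were 2.30-, 2.22- and 2.15-fold lower. The median deviation of the 9 genes was -1.37 on the log2 scale, beside -0.38 for 42 other postsynaptic density genes and -0.034 for tested genes at 10 CPM or more. Dlg1 deviated by 0.54 in the other direction, as Crhr1 did by 0.37, while the glutamatergic marker Slc17a7 deviated by -0.77. This library was also the lowest in the summed astrocyte (9.41 CPM), endothelial (0.203 CPM) and fibroblast (0.068 CPM) markers. What set its values was not tested. The median SD of the 9 genes among naïve mice was 0.58 on the log2 scale with it and 0.31 without it, beside 0.28 among withdrawn mice.

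**Figure D2:**
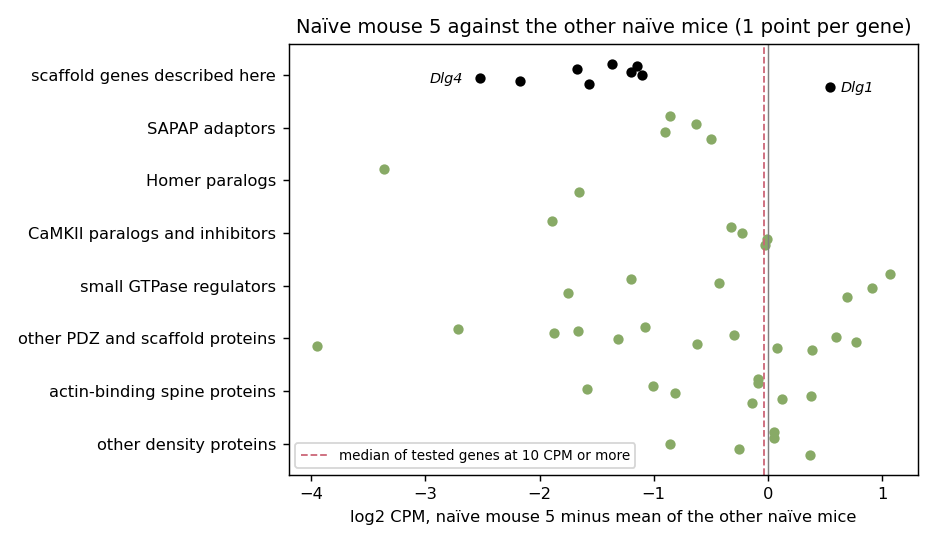
Difference in log2 CPM between naïve mouse 5 and the mean of the other naïve mice, 1 point per gene, for the 9 scaffold genes (black) and 42 other postsynaptic density genes by role (green), with the median of tested genes at 10 CPM or more as a dashed line at -0.034. All scaffold genes but Dlg1 (0.54) lie at -1.11 or below, while the other genes spread from -3.95 (Magi3) to 1.07 (Agap2).

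Without naïve mouse 5, 8 of the 9 estimates were lower in withdrawn mice, as were 49.2% of all genes then tested, and the median of the 9 was -0.34. The estimate was then -0.52 (SE 0.19) for Shank2, with an unadjusted p of 0.016 and an edgeR adjusted p of 0.447, and -0.39 (SE 0.17) for Camk2a, with an unadjusted p of 0.0381 and an edgeR adjusted p of 0.595. These 2 of 9 genes stand beside 7.71% of tested genes with an unadjusted p under 0.05, or 2.33% counted in the lower direction. For Shank3 the estimate was -0.54 (SE 0.27, edgeR adjusted p = 0.683) and the groups no longer overlapped. This was so for 1.47% of tested genes in either direction and for 0.625% with naïve mice higher. Dlg4 was at -0.51 and Shank1 at -0.34. None of the 9 was called without this mouse either, and neither was any of the 16957 genes then tested (0.0%). Leaving out other single mice moved the median both ways from -0.21. It was -0.11 without naïve mouse 3 and -0.13 without naïve mouse 4 or without withdrawn mouse 4. It was -0.29 without withdrawn mouse 3, -0.24 without withdrawn mouse 5 and -0.23 without naïve mouse 2 or without withdrawn mouse 2. Without the 3 withdrawn mice whose labels conflict the median was -0.32, again with 0 genes called. Leaving out withdrawn mouse 4 moved all 9 estimates up, the reverse of leaving out naïve mouse 5 for most of them. They were then -0.27 for Shank2, -0.35 for Shank3, -0.15 for Shank1, -0.14 for Dlg4 and -0.13 for Camk2a. When any 1 mouse was left out, estimates ran from -0.24 to -0.030 for Dlg1, 0.035 to 0.35 for Dlg3 and -0.51 to -0.14 for Dlg4. Those of Shank1 ran from -0.34 to -0.069, the latter without naïve mouse 1, those of Shank2 from -0.52 to -0.25, those of Shank3 from -0.54 to -0.29 and those of Camk2a from -0.39 to -0.13.

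**Figure D3:**
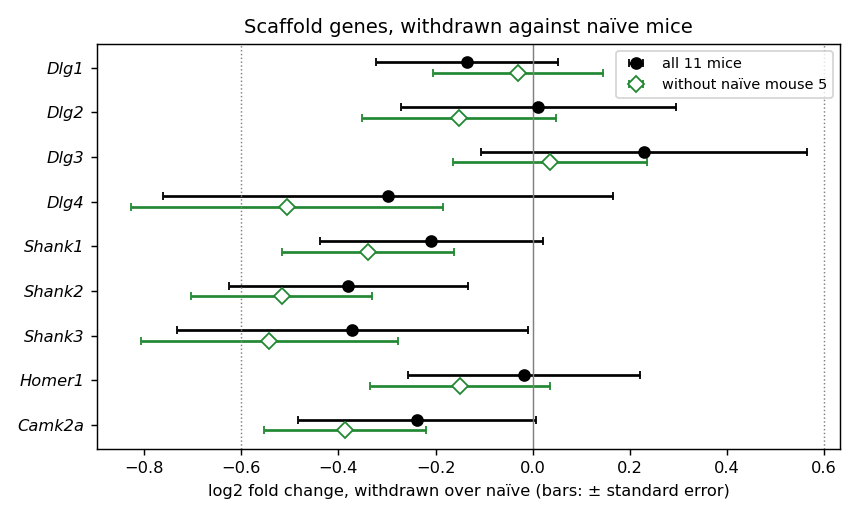
Log2 fold change of each scaffold gene, withdrawn over naïve, with bars of 1 standard error, for all 11 mice (filled circles) and without naïve mouse 5 (open diamonds), with dotted lines at the fold change needed for a call. The estimates run from -0.38 (Shank2) to 0.23 (Dlg3) with all mice, and every estimate but that of Dlg1 moves down without naïve mouse 5.

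The makeup of each paralog family was compared as a share of the summed CPM per kilobase within a mouse, a measure that does not depend on library size. Dlg3 (46.0% ± 14.2, SD, n = 6) and Dlg1 (38.1% ± 17.6) made up most of the Dlg1 to Dlg4 total in naïve mice, with Dlg2 at 13.8% ± 3.30 and Dlg4 at a few percent. Shank1 held 65.6% ± 4.33 of the Shank total, Homer1 held 86.0% ± 2.91 of the Homer total, and Camk2b (50.6% ± 6.65) exceeded Camk2a (36.6% ± 7.98) among the 4 CaMKII subunit genes.

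None of the 4 shares tested differed between groups with all mice. Dlg4 made up 2.07% ± 0.996 of its family in the naïve group (SD, n = 6) and 1.59% ± 0.227 in the withdrawn group (SD, n = 5), which differed by -0.48 points (two-sided exact permutation test over 462 splits, p = 0.366). Camk2a had 36.6% ± 7.98 and 34.2% ± 4.02, a difference of -2.39 points (exact permutation p = 0.597). The Shank3 share differed by -0.31 points (exact permutation p = 0.632) and the Homer1 share by -2.03 points (exact permutation p = 0.368), and the Benjamini-Hochberg adjusted value over the 4 shares was 0.632 for each. In naïve mouse 5 Dlg1 alone made up 72.9% of its family, against 27.1% to 38.6% in the other naïve mice, and Camk2a 20.9% of its own, against 36.2% to 42.6%. Without that mouse the Dlg4 share was 1.80% to 3.64% in naïve and 1.20% to 1.78% in withdrawn mice. For this difference of -0.77 points the exact permutation p was 0.00794, the smallest that 252 splits allow (adjusted p = 0.0318 over the 4 shares). The adjustment did not cover the choice of the mouse left out, which itself had the lowest Dlg4 share (0.614%). The Camk2a share then differed by -5.53 points and did not pass after adjustment (exact permutation p = 0.0397, adjusted p = 0.0794). With any other single mouse left out, the adjusted exact permutation p of the Dlg4 share was 0.521 or more. The Dlg4 difference therefore rests on leaving out 1 naïve library.

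**Figure D4:**
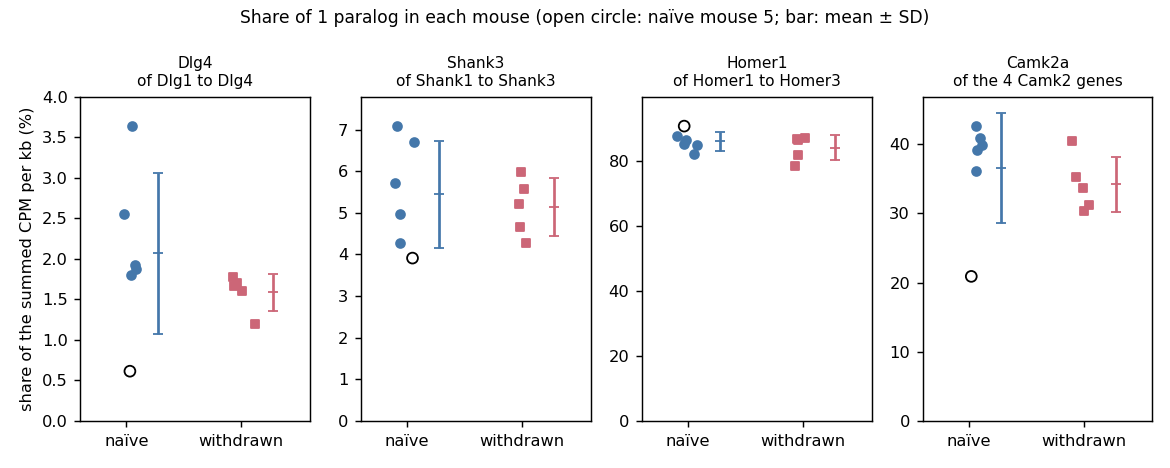
Share (%) of 1 paralog in the summed CPM per kilobase of its family, in each mouse, for Dlg4, Shank3, Homer1 and Camk2a, with the mean and SD of each group beside the points and naïve mouse 5 as an open circle. For Dlg4 the 5 other naïve mice (1.80% to 3.64%) lie above all withdrawn mice (1.20% to 1.78%) and the open circle lies below them (0.614%).

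Of 42 other postsynaptic density genes listed by role, all were tested and 0 were called in either direction by edgeR, beside 0.00585% of all tested genes. Estimates were lower in withdrawn mice for 32 of the 42, with a median log2 fold change of -0.14. Of all tested genes 48.2% had lower estimates, and of those with a mean of at least 10 CPM 56.3%. At an unadjusted p under 0.05 edgeR had 3 of these genes lower and 0 higher, beside 7.22% of all tested genes in either direction and 2.22% in the lower one. Without naïve mouse 5 the estimates were lower for 35 of the 42, beside 49.2% of all genes then tested. In that fit 2 genes, Prr7 and Baiap2, had an unadjusted p under 0.05, beside 7.71% of all genes in either direction and 2.33% in the lower one. The largest difference was in Prr7, which encodes a transmembrane protein of the density. It had 23.2, 13.7, 15.3, 11.5, 15.9 and 14.9 CPM in naïve mice 1 to 6 and 2.59, 1.57, 12.0, 3.81 and 2.48 CPM in withdrawn mice 1 to 5. Withdrawn mice 1, 2, 4 and 5 were below every naïve mouse, and withdrawn mouse 3 was inside the naïve range. The log2 fold change of Prr7 was -1.80 (SE 0.54) with an edgeR adjusted p of 0.327, and DESeq2, which called 0.0915% of genes lower, called it with an adjusted p of 0.0226. It was the 1 gene of the 42 that DESeq2 called. For Prr7, naïve mouse 5 was not apart from the other naïve mice.

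Baiap2, which encodes the actin regulator IRSp53 that binds Shank proteins, averaged 758 ± 85.0 CPM in the naïve group (SD, n = 6) and 574 ± 99.8 CPM in the withdrawn group (SD, n = 5). Its log2 fold change was -0.40 (SE 0.15, unadjusted p = 0.0164, edgeR adjusted p = 0.492), and withdrawn mouse 5, at 667.3 CPM, was level with the lowest naïve mouse at 667.2 CPM. Cask, a MAGUK kinase-like scaffold that acts with the Lin7 proteins, averaged 102 ± 30.3 CPM in the naïve group (SD, n = 6) and 72.9 ± 7.59 CPM in the withdrawn group (SD, n = 5). Its log2 fold change was -0.48 (SE 0.21, unadjusted p = 0.0349, edgeR adjusted p = 0.644), and naïve mouse 5 was the highest of all mice at 153 CPM. Without that mouse the estimate for Cask was -0.32 and its unadjusted p was 0.0861 (edgeR adjusted p = 0.735).

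By role, 3 of 4 SAPAP adaptors, 1 of 2 Homer paralogs, 4 of 5 CaMKII paralogs and inhibitors, 4 of 6 small GTPase regulators, 9 of 12 other PDZ and scaffold proteins, 6 of 8 actin-binding spine proteins and 5 of 5 other density proteins had estimates below 0. Over all tested genes this share was 48.2%. The most highly expressed gene of each role per kilobase of merged exon was Dlgap1 (38.7 CPM per kilobase), Homer2 (1.98), the CaMKII inhibitor Camk2n1 (116), Sipa1l1 (14.6), Lin7b (86.1), Baiap2 (135) and Nrgn (715), which encodes the calmodulin-binding protein neurogranin. Per kilobase of the longest coding transcript the same gene led each role except that of CaMKII, in which Camk2b (198) exceeded Camk2n1 (116). Each of these 7 genes apart from Baiap2 had an edgeR adjusted p between 0.854 and 0.988. Among the Homer paralogs, Homer3 had the highest estimate of the list at 1.47 with an SE of 0.94, from means of 1.20 ± 0.835 CPM in the naïve group (SD, n = 6) and 3.37 ± 2.37 CPM in the withdrawn group (SD, n = 5), and an edgeR adjusted p of 0.816.

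**Figure D5:**
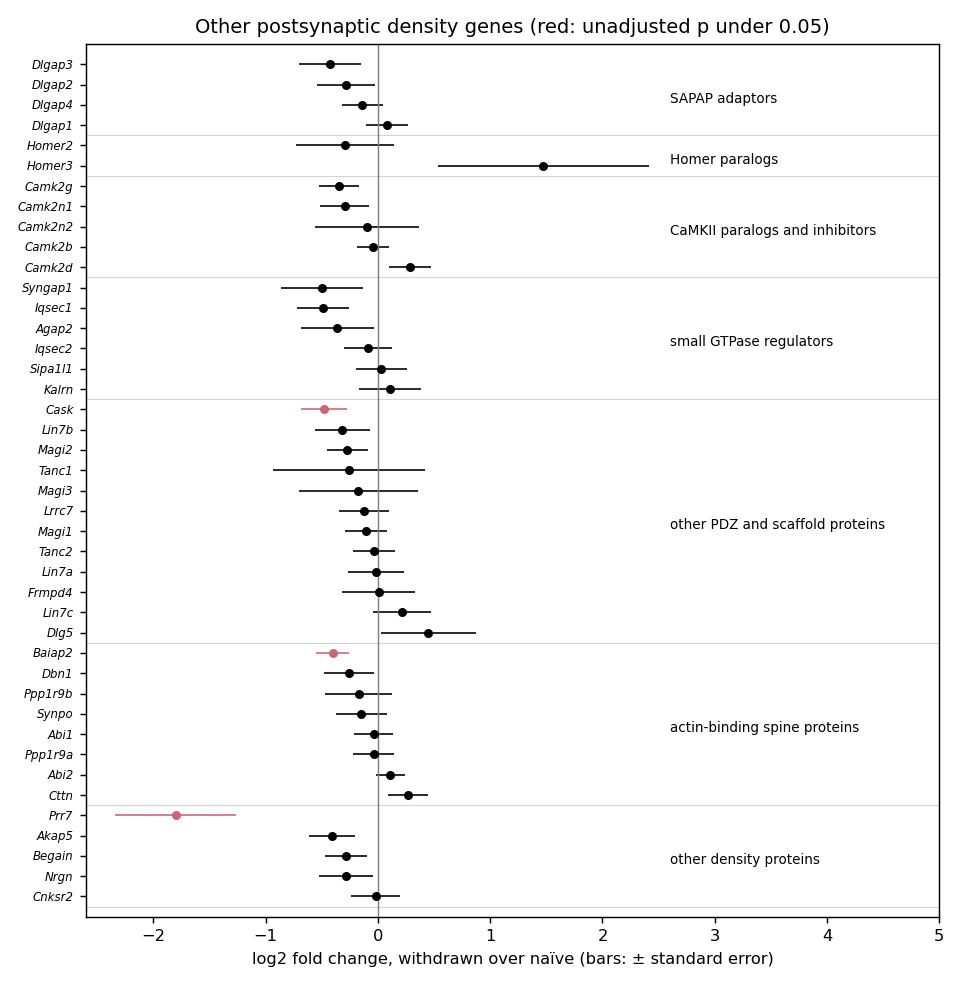
Log2 fold change, withdrawn over naïve, of 42 other postsynaptic density genes grouped by role, with bars of 1 standard error and genes with an unadjusted p under 0.05 in red. Of the 42 estimates 32 lie below 0, beside 48.2% of all tested genes, and the 3 red genes are Cask (-0.48), Baiap2 (-0.40) and Prr7 (-1.80).

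The scaffold genes also differed in base composition. The longest coding transcript had a GC content of 62.4% in Shank3, 61.5% in Shank1, 55.0% in Shank2, 53.3% in Camk2a and 52.0% in Dlg3, above the median of 50.2% over 13902 tested coding genes. Dlg4 (46.8%), Dlg2 (44.3%), Dlg1 (43.8%) and Homer1 (36.9%) were below that median. All of these genes but Dlg1 were lowest in naïve mouse 5, and a link between GC content and the values of that mouse was not tested.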

How the data were processed

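RNA of sorted mPFC CRF1+ neurons from 11 mice was sequenced. The authors amplified cDNA from 160 pg of RNA, sequenced reads of 75 nt, removed adapters (cutadapt 1.18), aligned to GRCm38 (STAR 2.5.2a) and tallied reads per gene of Ensembl 91 (HTSeq 0.11.0). The deposited values are raw counts. Symbols, coordinates and exon lengths came from GENCODE M21 on the same assembly.

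Counts were analysed with edgeR 4.0.16 in R 4.3.3 (TMM, filterByExpr with a minimum count of 10, quasi-likelihood test, Benjamini-Hochberg adjustment over all tested genes). CPM used library sizes summed over the tested genes, and log2 CPM a prior count of 2. DESeq2 1.42.0 and limma 3.58.1 (voom) were alternatives. The edgeR and DESeq2 steps were tested on simulated data. Libraries of no pair were duplicates (chi-square per degree of freedom of at least 25.6). Paralog shares were compared by exact permutation over mice. Intervals use 95% t quantiles.

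The scaffold genes, the lists of density genes and cell type markers, and the tests were chosen with earlier results of these data known. Named were all scaffold genes, listed density genes with an unadjusted p under 0.05 or the highest level per kilobase in their role, Crhr1, Slc17a7, and for each scaffold gene the gene closest in pattern. Other gene names (Homer3, Camk2b, Magi3, Agap2, Dlgap3 and single marker genes) were chosen after their values were seen.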

Additional observations from a re-analysis of the deposited data

Results flagged for a closer look

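In each group, the highest and lowest mouse was compared with the others by Dixon's criterion for log2 CPM of the 9 genes and for the 4 paralog shares. Of 26 sets of values, 9 had a mouse that stood apart, where about 1.3 would by chance, at 1 in 20. Of the 9, 6 were naïve mouse 5, at 5.40 for Dlg2 (others 6.85 to 7.14), 5.09 for Dlg3 (6.88 to 7.55), 1.44 for Dlg4 (3.74 to 4.25), 2.56 for Shank3 (3.97 to 4.40) and 7.73 for Camk2a (8.92 to 9.38), all in log2 CPM, and at 20.9% for the Camk2a share (36.2% to 42.6%).

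The other 3 were in withdrawn mice. Withdrawn mouse 4 was low at 2.65 log2 CPM for Dlg4 (others 3.46 to 3.77) and 5.80 for Shank2 (6.34 to 6.48). Withdrawn mouse 5 was high at 3.89 for Shank3 (3.61 to 3.68), a gap within a narrow range. The sets share mice and are not independent, and no cause was tested.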

How the results depend on the processing

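The call of 0 among the 9 scaffold genes held under every alternative run, and adjusted p-values stayed between 0.447 and 0.9999. Over all genes the count called was 1, but 362 with DESeq2, 137 with no low-count filter, 30 with at least 10 counts in every mouse, 26 with genes detected as covariate, 37 when the adjusted p could reach 0.1, and 0 with the share of reads outside exons as covariate, with the replicate block or without the 3 mice with conflicting labels. It ran from 0 to 193 with 1 mouse left out, the highest without withdrawn mouse 2. The cause was not tested. Of the other density genes 1 (Prr7) was called with DESeq2 and 0 otherwise, 0 to 0 with 1 mouse left out.

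The 2 estimates nearest to 0 changed sign. Dlg2 was -0.036 with voom, -0.0036 with genes detected as covariate and -0.10 without the 3 mice with conflicting labels, and from -0.15 to 0.15 with 1 mouse left out. Homer1 was 0.015 with DESeq2 size factors or DESeq2, 0.027 with at least 10 counts in every mouse and 0.032 with the replicate block, and from -0.15 to 0.14 with 1 mouse left out. The Homer1 share was 0.62 points higher in withdrawn mice from raw counts. With 1 mouse left out, differences ran from -0.77 to -0.16 points for the Dlg4 share, -0.61 to 0.022 for Shank3, -2.84 to -0.58 for Homer1 and -5.53 to -1.18 for Camk2a. Without the 3 mice with conflicting labels they were -0.42 points for Dlg4, -0.51 for Shank3, -3.6 for Homer1 and -5.79 for Camk2a. Levels per kilobase of the longest coding transcript, an alternative chosen after seeing the data, changed no share's direction or call.

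Replicate numbers pair different animals. Deviations of same-numbered mice correlated from -0.20 to 0.13, over 0.1 in 1 of 5 pairs, and 1 of 10 mice correlated best with its own number, so the numbers were not taken as pairs. With the replicate block 0 genes were called, and Dlg3 was at 0.47. Dlg4 had the smallest count of the scaffold genes, 38 in naïve mouse 5, in a library of 15693627 counts on genes.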

Other observations

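For each scaffold gene, the gene with the most similar pattern over the 11 mice was found among 10199 tested genes with at least 10 CPM, by the root mean square difference of log2 CPM values centred on their own mean. These were Pip4p1 for Dlg1 (0.124), Rab8b for Dlg2 (0.152), Kctd3 for Dlg3 (0.137), Pum2 for Dlg4 (0.119), Pgm2l1 for Shank1 (0.138), Elavl3 for Shank2 (0.132), Socs7 for Shank3 (0.161), Cobl for Homer1 (0.154) and Aak1 for Camk2a (0.141). Each of these genes except Pip4p1 was lowest in naïve mouse 5, and Pip4p1 was highest in it, as was Dlg1. The closest pair among the scaffold genes was Homer1 and Camk2a (0.221) and the farthest was Dlg1 and Dlg4 (0.920). These are descriptions over 11 libraries that share naïve mouse 5.

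Without naïve mouse 5, the groups did not overlap for 1 of the 42 other density genes, Dlgap3, beside 1.47% of all tested genes.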
